A study of Mus musculus with 2 samples.

Results

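Integrins are the adhesion receptors of the cell surface, and each is a pair of an α and a β subunit from separate genes. Here 10 integrin genes were followed in the optic nerve and optic tract of mice that lack CD47, out of 18193 genes with a probe set of their own. The genes were taken by name, through every probe set that the array's annotation gives to 1 of them alone, which was 29 of 45037 probe sets. They form 4 leukocyte genes of the β2 family, Itgax (CD11c), Itgam (CD11b), Itgal (CD11a) and Itgb2 (CD18), and 6 others: Itga4, Itgb1, Itga6, Itgav, Itgb3 and Itgb5.

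β2 integrins occur on leukocytes, which in the brain include microglia. They bind ICAM adhesion molecules, fibrinogen and complement fragments, and CD11c, the α chain of complement receptor 4, marks a microglial state seen in ageing and damaged white matter. The β1 integrins and the αv integrins are found on most cells and bind fibronectin, laminin, vitronectin and VCAM1. CD47 itself was first known as integrin-associated protein, a partner of αvβ3, before its role as the ligand of the inhibitory receptor SIRPα on myeloid cells was described.

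White matter RNA was compared between male wild-type mice, 13 to 15 weeks of age, and male CD47 null mice, 12 to 15 weeks of age, with an Affymetrix Mouse Genome array for each. RNA of several animals was pooled for each array. The series description counts 5 wild-type and 4 CD47 null mice, the labelling protocol counts 4 and 5, and the methods follow the first. The knockout is constitutive, so that every cell type lacked the protein. With 1 pool per genotype no test of the genotypes could be made, and the values below have no replicate check. No p-value and no SD over mice or arrays is given.

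Signal is the linear MAS5 intensity of a probe set. A floor of 106.4, the median of all signals on both arrays, was applied: a probe set counted as measured when at least 1 array was above it, and a signal under it was raised to it before the log2 ratio of CD47 null over wild-type was taken. Where the signal of 1 array had been raised in this way, the fold is only a lower limit, given as "at least". Of the 29 integrin probe sets, 14 were above the floor on both arrays, 2 gave a bound and 13 were under the floor on both. The sole repeat measurement was the agreement between probe sets of 1 gene: over 11653 pairs in 4740 genes the log2 ratios differed with an SD of 0.36, and 95% of pairs differed by less than 0.74. This spread holds neither mice nor hybridisations. Probe sets for Cd47 were lower in CD47 null for 4 of 4 measured, with 34.3% to 39.5% of the wild-type signal left in the 3 above the floor on both arrays. Where these probe sets lie relative to the disrupted part of the gene was not examined. Markers of the labelled tissue were bright on both arrays, such as Mobp of oligodendrocytes (53099 and 59026).

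**Figure D1:**
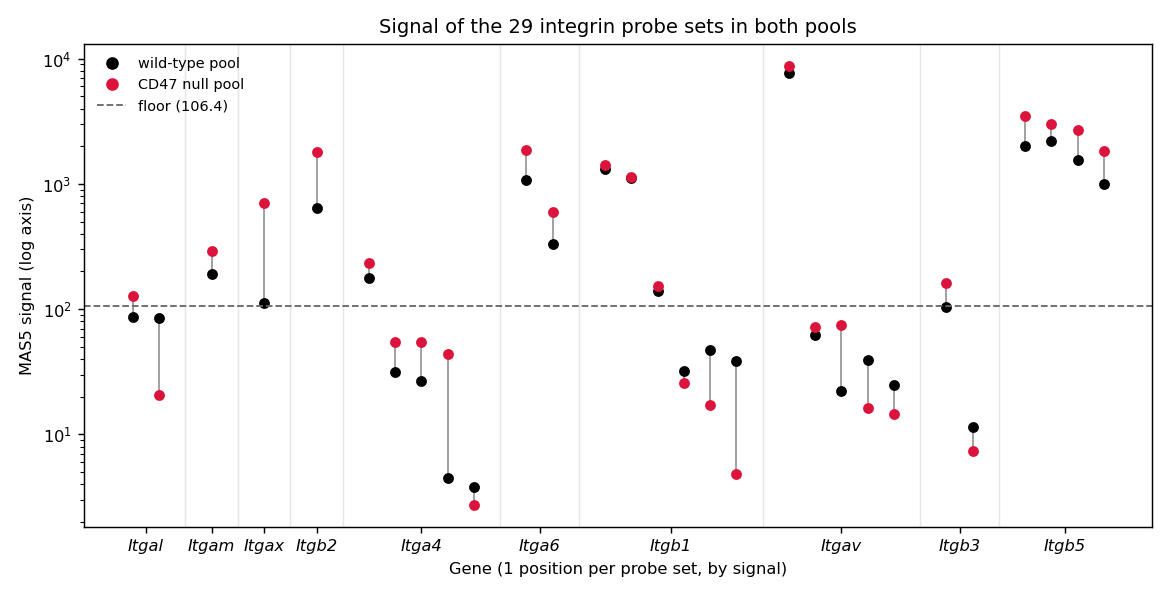
MAS5 signal (vertical, log axis) of each of the 29 integrin probe sets, grouped by gene, in the wild-type pool (black) and the CD47 null pool (red), with the floor at 106.4 dashed. The widest gaps above the floor are those of Itgax (112 to 703) and Itgb2 (641 to 1784), whereas the bright probe sets of Itgb1 and Itgav nearly coincide.

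Promoter windows of 250 bases before and 50 from the annotated start, from RefSeq on GRCm38.p6, were found for 6 of the 10 genes: Itgax, Itgam, Itga4, Itgb1, Itgav and Itgb5. They are given for Itgax and Itgam, neighbours on 1 chromosome whose ratios below are unequal, and for the β chains Itgb5 and Itgb1, of which the former has the higher ratio. Capitals mark matches on either strand to 4 motifs known from leukocyte or general promoters: GAGGAA (core of PU.1 sites), TGAGTCA (AP-1), TGTGGT (core of RUNX sites) and GGGCGG (SP1). No match overlapped another. All 4 lie on the plus strand.
Itgax, chr7:128129300-128129599: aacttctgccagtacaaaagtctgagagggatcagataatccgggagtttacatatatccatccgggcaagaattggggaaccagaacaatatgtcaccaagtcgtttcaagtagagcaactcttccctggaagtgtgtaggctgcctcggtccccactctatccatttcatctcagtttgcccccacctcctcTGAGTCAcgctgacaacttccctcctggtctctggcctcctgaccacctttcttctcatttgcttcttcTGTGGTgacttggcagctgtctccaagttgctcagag
Itgam, chr7:128062390-128062689: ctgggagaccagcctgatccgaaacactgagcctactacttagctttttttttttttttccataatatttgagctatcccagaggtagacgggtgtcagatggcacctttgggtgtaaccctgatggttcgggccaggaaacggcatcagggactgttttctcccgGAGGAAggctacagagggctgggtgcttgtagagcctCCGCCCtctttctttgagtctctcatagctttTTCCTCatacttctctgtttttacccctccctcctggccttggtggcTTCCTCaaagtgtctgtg
Itgb5, chr16:33829415-33829714: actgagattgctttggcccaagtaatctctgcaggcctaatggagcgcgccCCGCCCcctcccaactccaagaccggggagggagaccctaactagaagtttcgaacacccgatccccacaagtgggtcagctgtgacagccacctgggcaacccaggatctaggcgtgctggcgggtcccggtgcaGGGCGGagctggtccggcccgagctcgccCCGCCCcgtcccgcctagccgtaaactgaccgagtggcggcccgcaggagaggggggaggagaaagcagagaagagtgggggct
Itgb1, chr8:128685404-128685703: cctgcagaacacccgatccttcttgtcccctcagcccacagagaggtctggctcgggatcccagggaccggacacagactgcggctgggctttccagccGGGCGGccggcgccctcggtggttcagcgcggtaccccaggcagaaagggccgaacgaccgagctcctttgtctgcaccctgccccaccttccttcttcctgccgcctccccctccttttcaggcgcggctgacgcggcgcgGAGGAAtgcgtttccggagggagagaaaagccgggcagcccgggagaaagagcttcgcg

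The windows differed in these letters and in base composition. Itgam held GAGGAA 3 times and GGGCGG 1 time, and Itgax held TGAGTCA 1 time, from -56 to -50, and TGTGGT 1 time, from 13 to 18, where 0 is the first transcribed base. Itgb5 held GGGCGG 3 times, and Itgb1 held GAGGAA 1 time and GGGCGG 1 time. Of 32851 RefSeq windows of the same length, 28.3% held GAGGAA, 5.20% TGAGTCA, 16.8% TGTGGT and 35.7% GGGCGG. The GC content was at most 50.3% for Itgax and Itgam, against 65.7% for Itgb5 and 67.3% for Itgb1. These matches describe the letters of the windows, and binding at them was not measured.

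Itgax, which encodes the αX chain CD11c, had the largest difference of the 10 genes. Its only probe set had a signal of 112 in wild-type and 703 in CD47 null, a log2 ratio of 2.65 or 6.28-fold. It ranked 5 among 12473 measured genes by log2 ratio. The wild-type signal lay just above the floor, so that the size of the difference depends on where the floor is set: at the 60th percentile of all signals (187.0) it becomes at least 3.76-fold. The study named Itgax and Itgam in part from these samples, and their direction here is therefore not independent evidence. For Itgax the study also reported a significant rise by quantitative PCR of white matter RNA, which was not re-examined here.

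Itgb2 encodes the β2 chain, without which no CD11 chain reaches the cell surface. Its only probe set went from 641 to 1784, a log2 ratio of 1.48 or 2.78-fold, and it ranked 47 among measured genes. Itgam, the αM chain CD11b of complement receptor 3, went from 192 to 291, a log2 ratio of 0.60 or 1.52-fold. Itgal encodes the αL chain of LFA-1, which is typical of lymphocytes. Of its 2 probe sets, 1 went from 86.0, under the floor, to 127, at least 1.19-fold higher, and the other was under the floor on both arrays (85.4 and 20.8).

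The partner chains of the β2 integrins thus had unequal ratios. The log2 ratio of Itgax exceeded that of Itgb2 by 1.17 and that of Itgam by 2.05, and the log2 ratio of Itgb2 exceeded that of Itgam by 0.87. Each of these gaps was larger than the 0.74 within which 95% of probe set pairs of 1 gene fell. That spread pools pairs of any signal above the floor and was not taken for dim probe sets, such as that of Itgax (112 in wild-type). Itgax, Itgb2 and Itgam had 1 probe set each, so that their own spread is unknown. With the floor moved to the 60th percentile, the gap between Itgax and Itgb2 was at least 0.44, which no longer exceeds 0.74, and that between Itgax and Itgam at least 1.31. For Itgal the gap to Itgb2 could not be fixed, since the Itgal value is a bound.

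Among the laminin and fibronectin receptors, the log2 ratios of partner chains differed by 0.67 or less. Itga6, the α6 chain of laminin receptors, was higher in CD47 null by both of its probe sets, from 1082 to 1874 (log2 ratio 0.79, 1.73-fold) and from 329 to 594 (log2 ratio 0.85, 1.80-fold). Its β1 partner Itgb1, the most widely shared β chain, differed little: its 3 measured probe sets went from 1305 to 1417, from 1118 to 1131 and from 139 to 153, with log2 ratios of 0.12, 0.02 and 0.14. A further 3 probe sets of Itgb1 were under the floor on both arrays, at signals of 4.79 to 47.1. The log2 ratio of Itga6 exceeded that of Itgb1 by 0.67, which is under the 0.74 given above, and that of its other partner Itgb4 by 0.57. Itga4, the α4 chain of the VCAM1 receptor VLA-4, went from 177 to 234 (log2 ratio 0.40, 1.32-fold) by 1 of its 5 probe sets, the other 4 being under the floor on both arrays.

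Among the αv integrins, which bind RGD motifs in vitronectin, MFGE8 and latent TGF-β, the β5 chain had a higher ratio than αv, by less than 0.74 on the log2 scale. All 4 probe sets of Itgb5 were above the floor. They went from 2019 to 3504, from 2210.3 to 3006, from 1542 to 2691 and from 1004 to 1828, with log2 ratios of 0.80, 0.44, 0.80 and 0.86. The 4 values therefore lay on 1 side of 0 and spanned 0.42, and the 2 probe sets that the array's naming marks as open to cross-hybridisation gave 0.44 and 0.80. Itgav, the shared αv chain, went from 7686 to 8754 (log2 ratio 0.19, 1.14-fold) by its bright probe set, and its other 4 probe sets were under the floor on both arrays. Itgb3, the β chain of αvβ3 and of the platelet fibrinogen receptor, went from 104.6, just under the floor, to 163 by 1 probe set, at least 1.53-fold higher, and was under the floor on both arrays by the other. The log2 ratio of Itgb5 exceeded that of Itgav by 0.61, and the log2 ratio of the further αv partner Itgb8 was 0.09 below that of Itgav.

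**Figure D2:**
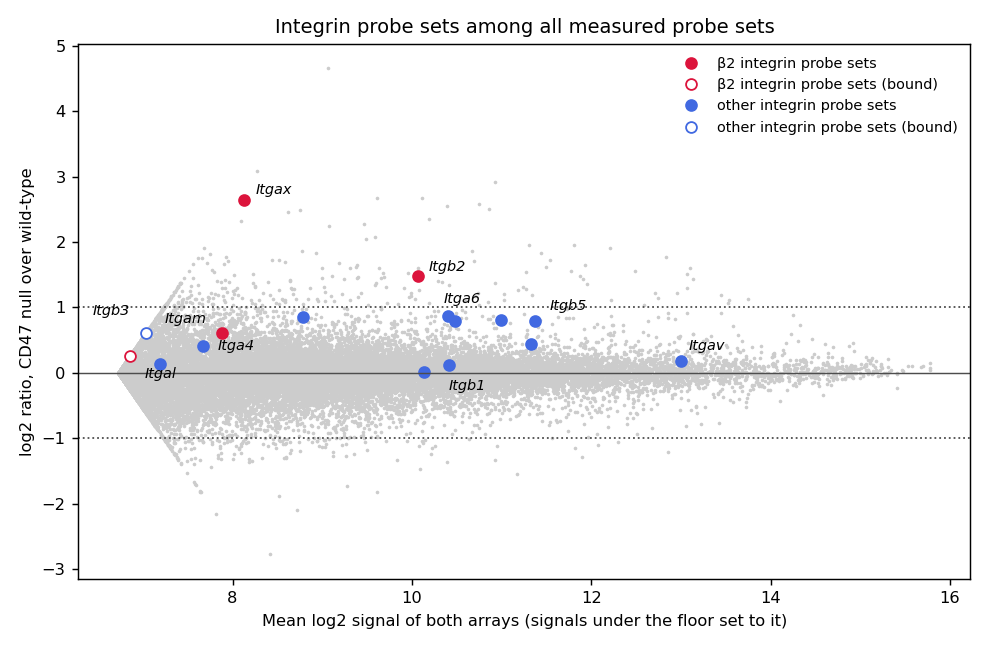
Log2 ratio of CD47 null over wild-type (vertical) against the mean log2 signal of both arrays (horizontal) for all 23846 measured probe sets (grey) and the 16 measured integrin probe sets (red, β2 integrins; blue, the others; open circles, bounds). Dotted lines mark 2-fold. Itgax (2.65) and Itgb2 (1.48) lie above the upper dotted line, and the 4 probe sets of Itgb5 and the pair of Itga6 lie between 0.44 and 0.86.

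Set side by side, the β2 genes held the only integrin differences over 2-fold. Itgax and Itgb2 were over 2-fold higher, 2 of 4 β2 genes, against 0 of the 6 others, and 0 of the 10 were over 2-fold lower. Over all measured genes, 1.21% were over 2-fold higher and 0.818% over 2-fold lower. By probe sets, 2 of 16 were over 2-fold higher and 0 lower, where 1.06% and 0.751% of all measured probe sets were. At 1.5-fold the count of higher genes was 3 of 4 in the β2 group (Itgax, Itgb2 and Itgam) and 3 of 6 in the others (Itgb5, Itga6 and Itgb3, the last as a bound), against 4.02% of all measured genes, and 9 of 16 probe sets against 4.45%. Several of these 9 probe sets belong to Itgb5 and Itga6, and probe sets of 1 gene are not separate units. The genes were also chosen with earlier results of these data known, so the shares are no test of enrichment.

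All 10 genes had a log2 ratio above 0 by their brightest probe set, as did 46.8% of all measured genes. The median was 1.04 over the 4 β2 genes and 0.51 over the 6 others, a difference of 0.53, and -0.02 over all 12473 measured genes. Itgal and Itgb3 were measured only through the CD47 null array, where they were higher. Over genes above the floor on both arrays the median was 1.48 for 3 β2 genes, 0.40 for 5 others and -0.01 for 11592 genes in all. The groups overlapped: Itgam (0.60) lay below Itgb5 (0.80) and Itga6 (0.79), by 0.19 against Itgb5, which is less than the SD between probe sets of 1 gene. Itgal, as a bound, could not be placed. In order of log2 ratio, the 8 genes above the floor on both arrays ran Itgax, Itgb2, Itgb5, Itga6, Itgam, Itga4, Itgav and Itgb1. Apart from the gap between Itgax and Itgb2, which depends on the floor as given above, neighbours differed by no more than the 0.68 between Itgb2 and Itgb5, under the 0.74 within which 95% of probe set pairs fell. Itgb3 and Itgal have no place in this order, since their values are lower limits.

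In bulk tissue, more cells of a type and more RNA per cell cannot be told apart. Microglial markers were therefore set beside the integrins: 8 of 11 measured were above 0, with a median log2 ratio of 0.46. Over all measured genes, 46.8% were above 0. The summed signal of the markers went from 25749 to 37538, 1.46-fold. The brightest, the CSF1 receptor gene Csf1r, made up 15765 and 21740 of these sums, so that the summed fold mostly follows 1 gene. The markers ranged from -0.52 (Tmem119) to 2.55 (Fcrls, an Fc receptor-like gene), and Csf1r had 0.46. Besides Tmem119, Sall1 (-0.21) and P2ry12 (-0.14) were below 0. None of the 11 had a higher log2 ratio than Itgax and 1 had a higher one than Itgb2, whereas 4 did for Itgam, Itga6 and Itgb5 alike, 6 for Itga4 and 8 for Itgav and Itgb1. For the bounds of Itgb3 and Itgal these counts are upper limits, 4 and 8. The leads of Itgax (2.65) over Fcrls (2.55) and of Itgb2 (1.48) over Cx3cr1 (1.35) are smaller than the SD of 0.36 between probe sets. With the floor at the 60th percentile Itgax is only a bound of 1.91, so that its count is not fixed there. Itgax exceeded the microglial median by 2.19 on the log2 scale and Itgam by 0.14. The part of microglial number in these differences was not tested.

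Other cells that carry β2 integrins were checked by their markers. Of the dendritic cell list, 2 of 6 genes on the array were measured, both above 0 by the brightest probe set, with a median of 0.30. The higher, Batf3, had 0.42, while Zbtb46 had 0.19 by its brightest probe set and -0.56 by another. The other 4, Flt3, Xcr1, Cd209a and Ccr7, were under the floor on both arrays. The summed signal of all 6, with these 4 included at their raw signals, went from 546 to 752, so that part of the rise lies under the floor. Of monocyte and neutrophil markers, 6 of 8 measured were above 0, against 46.8% of all measured genes, with a median of 0.34. The summed signal of the 10 on the array, 2 of them under the floor, went from 3664 to 4431. The G-CSF receptor gene Csf3r was 3.28-fold higher in that list, S100a8 was 1.11-fold higher, and the monocyte receptor gene Ccr2 was under the floor on both arrays by its brightest probe set but measured by 2 dimmer ones, with log2 ratios of -0.08 and 0.38. Lymphocyte markers, which bear on Itgal, were under the floor on both arrays for 7 of 9, and the 2 measured had opposite bounds, Cd8a at least 1.38-fold lower, while Nkg7 was at least 1.62-fold higher. Perivascular macrophage markers were below 0 for 6 of 8, with a median of -0.32 and a summed signal that went from 4874 to 4169; the brightest, Pf4, had -0.53 and Ms4a7 had 1.12. Their part in the integrin differences was not tested.

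Cells that carry β1 and αv integrins were checked in the same way. Endothelial markers were below 0 for 6 of 8, with a median of -0.22, from Kdr at -0.79 to 0.39, with Itm2a the brightest at -0.26, and meningeal markers for 7 of 7, with a median of -0.37, Aldh1a2 at -0.53 and Dcn the brightest at -0.37. Of platelet markers, which bear on Itgb3, 2 of 3 were below 0, with Ppbp at -1.35 and Gp1bb, the brightest, at 0.38 by its brightest probe set and -0.69 by another. Astrocyte markers had a median of 0.14 over 6, with Gfap at 0.52 and Gja1, the brightest, at -0.09 (probe sets from -0.63 to 0.50), and oligodendrocyte markers a median of 0.11 over 7, with Mobp at 0.15 (probe sets from -0.22) and Opalin at 0.62. Neuronal markers were below 0 for 8 of 8, with a median of -0.99, Snap25 the brightest at -0.98 and Nefm at -1.32. Second probe sets gave smaller differences for Snap25 (-0.38), Syt1 (-0.66), Rbfox3 (-0.15), Gad1 (-0.43) and Stmn2 (-0.64). They gave larger ones for Nefl (-0.90) and Slc17a6 (-1.32). For comparison with these counts, 6633 of all 12473 measured genes were below 0. The part of these cell types in the integrin values was not tested.

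Subunits outside the 10 genes had log2 ratios from -0.15 to 0.51, a range that overlaps that of the 10. Of 26 integrin subunit genes in all, 24 were on the array with a probe set of their own and 17 were measured, 16 of them above 0; Itgax and Itgb2 were the only ones over 2-fold. Among the other α subunits the median log2 ratio was 0.38 over 5 measured of 10 on the array, with Itga8 at 0.51, Itga9 at 0.41, the platelet subunit Itga2b at 0.38 and the brightest, Itga3, at 0.05. Among the other β subunits 2 of 4 were measured, Itgb4 at 0.23 and Itgb8 at 0.10. Of all measured genes, 46.8% were above 0, 1.21% over 2-fold higher and 0.818% over 2-fold lower.

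Ligands of β2 integrins had a median of 0.38 over 7 measured, 5 above 0 and 0 over 2-fold. The main leukocyte ligand Icam1 went from 328 to 485 (log2 ratio 0.56), Icam2 was at least 1.42-fold higher, and the junctional molecules Jam2 and Jam3, the latter the brightest, had 0.50 and 0.32. The probe sets of Jam2 ran from -0.05 to 0.57. Jam2 was kept in this list without a check that its product binds β2 integrins. Ligands in the matrix and on other cells had a median of 0.02 over 19, 10 above 0 and 9 below, with 0 over 2-fold. Vcam1, which the α4 integrins bind, went from 1784 to 3331 (log2 ratio 0.90) by its brightest probe set, but its 3 measured probe sets ran from -0.61 to 0.90. Periostin (Postn) had 0.65, nephronectin (Npnt) 0.49 and fibronectin (Fn1), the brightest, -0.32. For comparison, 46.8% of all measured genes were above 0, 1.21% over 2-fold higher and 0.818% lower. With such shares, a count of 0 over 2-fold in lists this short says little about the ligands.

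Of the genes that switch integrins on, 10 of 11 measured were above 0 by their brightest probe set, with a median of 0.12, and 8 of 11, with a median of 0.057, by the median over probe sets. In that summary talin 1 (Tln1) went from 0.18 to -0.19. By the brightest probe set, 46.8% of all measured genes were above 0 and 1.21% were over 2-fold higher. Fyb, the adaptor ADAP of leukocytes, was over 2-fold higher, from 509 to 1046 (2.06-fold), and its other measured probe set had a log2 ratio of 1.26. The brightest, the small GTPase gene Rap1a, had 0.12, and -0.01 when its probe sets were summarised by their median. Fermt3, Fermt2 and Rasgrp2 were chosen after the values were seen. Kindlin-3 (Fermt3), which binds β tails in blood cells, had 0.85 (857 to 1542) by its brightest probe set, and its 3 measured probe sets ran from 0.43 to 0.85. Kindlin-2 (Fermt2), its counterpart in other tissues, had 0.03 (6047 to 6188), and the Rap1 exchange factor Rasgrp2 had -0.68. Genes that hold integrins inactive had a median of 0.07 over 4, with Dok1 at 0.47, the brightest, Itgb1bp1, at 0.19, and Sharpin at -0.13.

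Outside-in signalling genes had a median of 0.04 over 17 measured, 9 above 0 and 0 over 2-fold. The 3 with the largest log2 ratios were the myeloid Src-family kinase gene Fgr (0.83, with its other probe set at 0.15), parvin γ, Parvg, of haematopoietic cells (at least 1.73-fold higher) and parvin β, Parvb (0.49). The brightest, vinculin (Vcl), had 0.04. Since 46.8% of all measured genes were above 0 and 1.21% over 2-fold higher, these outside-in counts are no result about the list. Membrane partners of integrins had a median of 0.23 over 10 measured, with 8 above 0. Cd47 itself was the only one over 2-fold (log2 ratio -1.55), and the brightest, the tetraspanin gene Cd81, had 0.24. Sirpa, the receptor of CD47, had 0.68 and the tetraspanin gene Cd9 had 0.72, both chosen after their values were seen.

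**Figure D3:**
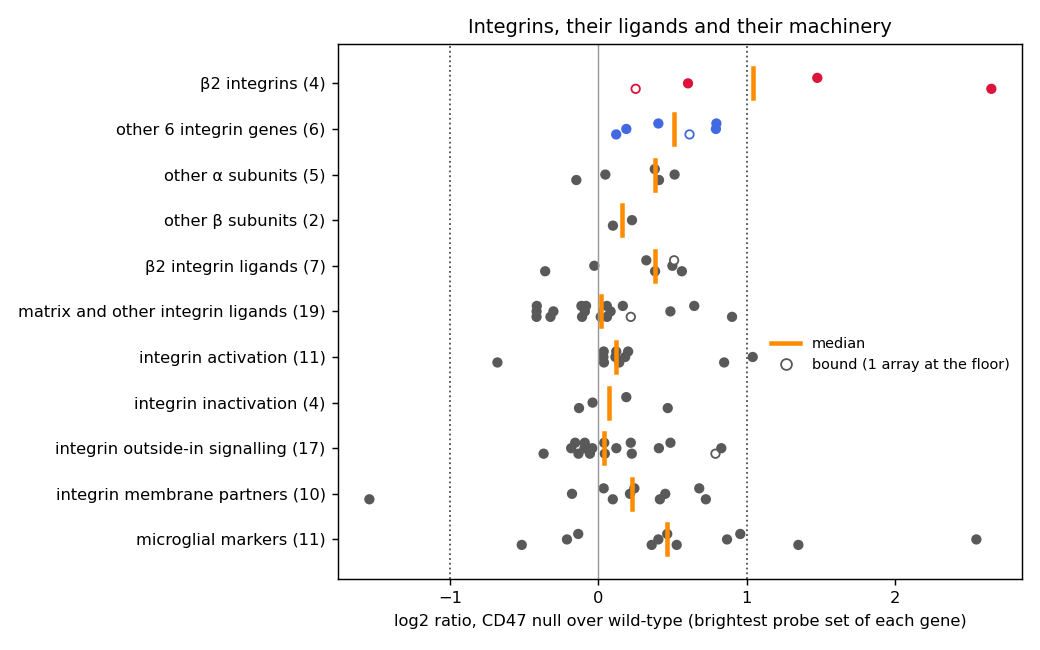
Log2 ratio of CD47 null over wild-type (horizontal) for each measured gene of the integrin lists and of the microglial markers (number of measured genes in brackets), with the median of each list (orange bar), bounds as open circles and dotted lines at 2-fold. The β2 integrins have the median furthest to the right (1.04), and the ligands in the matrix (0.02) and the outside-in signalling genes (0.04) have medians near 0.

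The position of the genes was compared with their values. Itgam and Itgax, whose promoters are printed above, and Itgad follow each other on chromosome 7 with no protein-coding gene between them, and Itgal lies on the same chromosome, with 35 such genes between it and Itgam; Itgad was not analysed here. Among the 10 protein-coding genes to each side of Itgax, 14 were measured besides the integrins, with a median log2 ratio of 0.05, and 1 was over 2-fold higher, the inflammasome adaptor gene Pycard (2.18-fold). Around Itgb2, 12 were measured, with a median of -0.04 and none over 2-fold. Around Itgb5, 14 were measured, with a median of 0.18, 9 above 0 and none over 2-fold. Itgb5 lies on chromosome 16, as does Cd47, and of 120 protein-coding genes between them 67 were measured, with a median of 0.05. Of these 67, 2 were over 2-fold higher, 2 over 2-fold lower and 6 over 1.5-fold higher. Over all measured genes, 46.8% were above 0, 4.02% over 1.5-fold higher, 1.21% over 2-fold higher and 0.818% over 2-fold lower. The part of position in the Itgb5 value was not tested.

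**Figure D4:**
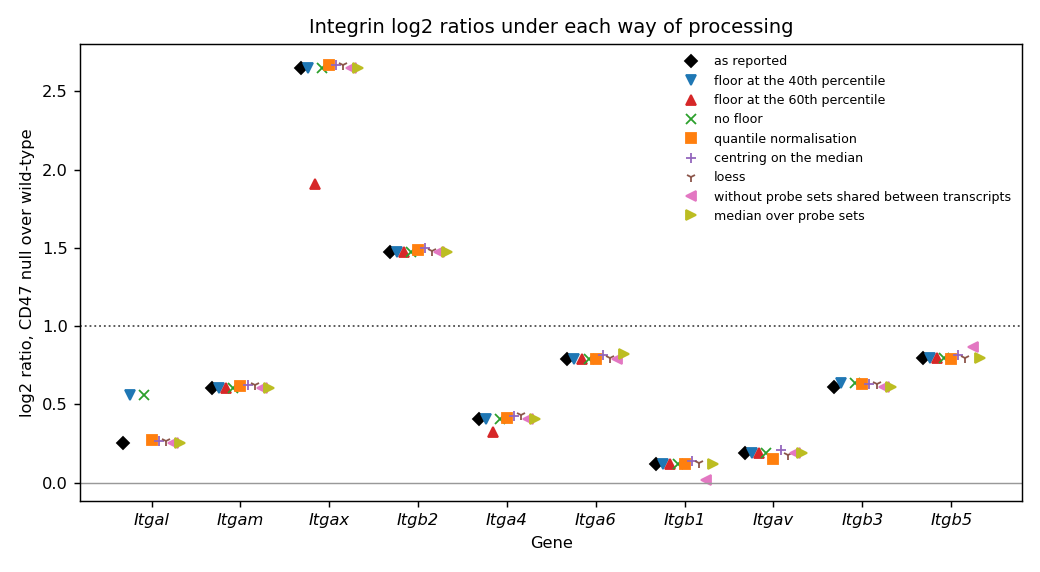
Log2 ratio of CD47 null over wild-type (vertical) of each of the 10 genes as reported and under 8 other ways of processing (symbols), with the dotted line at 2-fold. Values are of the brightest probe set, except for the median over probe sets and where leaving out shared probe sets removed the brightest. Itgax (3.76-fold or more) and Itgb2 (2.78- to 2.82-fold) stay above the line, the other 8 genes stay below it, and all values shown are above 0.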

How the data were processed

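The authors pooled total RNA from genotype-matched animals, amplified and biotin-labelled 250 ng by in vitro transcription from the 3' end, hybridised it to GeneChip Mouse Genome 430 2.0 arrays and processed the scans with Expression Console. The deposited values are MAS5 signal intensities per probe set, on a linear scale, and the trimmed mean of each array (without the top and bottom 2%) was 500.003, as after scaling each array by 1 factor. The sources used here name MAS5 without a version. Detection calls were not used. Precision is limited by having 1 array per genotype.

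From these intensities 64 of 45101 probe sets, the controls, were set aside, the floor was applied and log2 ratios were computed in Python 3.11.15 with pandas 2.3.3. Low MAS5 signals are noisy, and the floor shortens the ratios of dim genes. Of the probe sets, 34945 had 1 gene symbol, 932 several and 9160 none; those with several or none were left out. Of the former, 34741 were named by gene identifier in the RefSeq table of GRCm38.p6, which was otherwise used for gene order and promoters. A gene took the value of its brightest probe set by mean log2 signal. A difference over 2-fold, the threshold of the study, was counted, with 1.5-fold beside it.

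The members and the 8 pathway and 11 marker lists were chosen with earlier results of these data known. The text names every member, the genes over 2-fold in a pathway list or, with none, the 3 with the largest absolute log2 ratio, the brightest of each list, and the brightest and most different marker. Steps were tested on simulated data with known fold changes, set in bright genes only, so that fold changes near the floor were not covered. The alternatives were other floors or none, quantile normalisation, median centring, loess, leaving out probe sets whose names mark them as shared between transcripts or genes, and the median over probe sets.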

Additional observations from a re-analysis of the deposited data

How the results depend on the processing

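The direction of the 10 integrin genes was the same under all 8 alternatives wherever a value could be had: 78 of 78 values were above 0. The other 2 were Itgal and Itgb3 with the floor at the 60th percentile, which left both under it. Much of this agreement was fixed in advance, since moving or removing the floor cannot turn the sign of a ratio. The settings that change which probe sets are used could alter only those of the 10 genes with more than 1 measured probe set. At the 60th-percentile floor the median of the β2 genes, without Itgal, was 1.48, that of the others, without Itgb3 and with Itga4 as a bound, was 0.32, and the difference was 1.15. Itgax had 1.91 there, as a bound, and 2.65 to 2.67 under the 7 other settings, and the log2 ratio of Itgal was 0.56 with the floor at the 40th percentile or none. Of these 10 genes, Itgax and Itgb2 were the only ones over 2-fold under each setting. Without a floor, where dim probe sets enter, 5 integrin probe sets were over 2-fold higher and 4 lower. In the same setting 1 β2 ligand was over 2-fold lower, and 2 outside-in signalling genes, 1 matrix ligand and 1 other β subunit were over 2-fold higher. With the floor at the 40th percentile 1 outside-in signalling gene was. Over all genes, 151 were over 2-fold higher and 102 lower as reported, 1287 and 1445 without a floor, and the count of lower genes was 173 for the 40th-percentile floor and 55 for the 60th. Quantile normalisation, centring and loess moved the median of all genes from -0.02 to no more than 0.0032. No paired analysis was possible because each genotype had 1 array.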
